A study of Homo sapiens with 16 samples.

Results

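The broadly expressed genes of chromosome 12 were taken as those with a locus on that chromosome, a single gene symbol and at least 5 FPKM (fragments scaled to transcript length and sequencing depth) in each of 6 groups. Ribosomal protein genes with RPL or RPS symbols were left out. Of 1161 single-symbol genes of chromosome 12, among 23284 genes in all, 614 reached 5 FPKM in at least 1 group and 448 in all groups. Leaving out 5 ribosomal protein genes gave 443 genes, 104 on the p arm and 339 on the q arm. The levels in all 6 groups chose the genes, so a gene that dropped below 5 FPKM in any group is absent. The last genes inside the minimum were TMEM116 and LOC100506844, each with a lowest level of 5.09 FPKM, and the first outside were LOC100652999 at 4.92 and EEA1 at 4.89. The comparison set was the 6914 genes of the other autosomes that met the same rule.

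The RNA came from WA01 human embryonic stem cells, an established line, driven toward neural crest with 3 µM of CHIR99021, which inhibits GSK3 and so activates WNT signalling. All groups were plated at 20000 cells per cm2 with 10 µM of the ROCK inhibitor Y-27632 at the start. They were sampled at day 3 (pre-neural crest cells) and day 5 (neural crest cells). The edited lines, called Het and KO, had been cut at the translational start of FOXB1, a forkhead transcription factor gene on another chromosome, with a single guide RNA, and 2 isogenic wild-type lines stood beside them, with 2 replicates for each line and day. The authors' deposited table gives 1 level per gene for wild type, Het and KO at each day, with no value per library. It does not say which of the 4 wild-type libraries of a day entered the wild-type group. Each edited genotype is 1 line, so what belongs to the FOXB1 edit and what belongs to that line cannot be told apart. Nothing in the labels says that replicates were separate cultures, so the deposited p-values may measure technical spread alone. Karyotype and DNA copy number were not measured in the data used here.

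Diploid cells carry a pair of each autosome, and for most genes the amount of transcript follows the number of copies, with feedback buffering some of them. A gain or loss of a whole chromosome therefore shows as a shared shift of many neighbouring genes, whatever their function. Gain of chromosome 12 is among the recurrent karyotype changes of human pluripotent stem cells kept in culture, and the chromosome carries NANOG, CDK4, MDM2, GAPDH and the cluster of type II keratins. Below, log2 ratios are set beside reference copy ratios: 2 copies against 3 give a ratio of 0.667, or -0.58 on the log2 scale, and 1 copy against 2 gives -1.

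Promoters were taken from RefSeq (GRCh38.p14) for the 352 genes of the 443 that matched, in windows of 300 bases around the gene start. They show how ordinary the set is in sequence. The GC box GGGCGG, searched on both strands, was found in 76.7% of the 352, beside 73.1% of 5523 promoters of the comparison set and 44.7% of all 26246 promoters in the source. The TATA motif TATAAA was found in 4.26%, beside 4.42% and 12.04%, and CCAAT in 39.5%, beside 39.0% and 35.4%. Of the 3 printed here, up to 250 bases before the gene start and with these motifs in capitals in either orientation, PRIM1 had a KO to wild type ratio close to the chromosome's median, and WNT1 and ITGA5 were among the few genes that rose. The stretch printed for PRIM1, a DNA primase subunit, is chr12:56752324-56752573 (GRCh38.p14) on the minus strand. That for WNT1, a secreted ligand, is chr12:48978072-48978321 on the plus strand, and that for ITGA5, an integrin subunit, chr12:54419267-54419516 on the minus strand.
PRIM1: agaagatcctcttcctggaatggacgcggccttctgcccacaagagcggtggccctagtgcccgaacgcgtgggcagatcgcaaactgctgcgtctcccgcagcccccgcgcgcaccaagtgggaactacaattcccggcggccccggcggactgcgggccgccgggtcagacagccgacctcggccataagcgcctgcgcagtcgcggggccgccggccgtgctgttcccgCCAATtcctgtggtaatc
WNT1: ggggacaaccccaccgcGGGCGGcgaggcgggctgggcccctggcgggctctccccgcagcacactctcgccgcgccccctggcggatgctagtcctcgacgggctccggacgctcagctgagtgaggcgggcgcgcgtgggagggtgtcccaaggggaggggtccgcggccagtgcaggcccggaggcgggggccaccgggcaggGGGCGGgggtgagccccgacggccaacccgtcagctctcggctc
ITGA5: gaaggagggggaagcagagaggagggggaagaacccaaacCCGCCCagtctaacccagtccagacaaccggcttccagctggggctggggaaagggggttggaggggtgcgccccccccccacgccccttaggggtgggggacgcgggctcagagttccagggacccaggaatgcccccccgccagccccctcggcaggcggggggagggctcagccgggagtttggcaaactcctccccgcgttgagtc
The PRIM1 stretch held 1 CCAAT match, that of WNT1 2 GC boxes and that of ITGA5 1. Genes with and without a GC box had nearly the same median log2 ratio of KO to wild type at day 3, -0.47 for the 270 with it and -0.46 for the 82 without. The medians were -0.50 and -0.46 for the 139 genes with and the 213 without a CCAAT match. The 15 genes with a TATAAA match had a median of -0.38 for KO at day 3 and -0.72 at day 5, beside -0.47 and -0.52 for the 337 without.

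At day 3 the chromosome 12 genes were lower in both edited lines than in wild type, and alike in KO and Het. The median log2 ratio over the 443 genes was -0.47 for KO to wild type (a ratio of 0.72) and -0.52 for Het to wild type (0.70), while the comparison set had medians of 0.04 and 0.01. Below 0 were 413 genes in KO (93.2%) and 420 in Het (94.8%), beside 45.8% and 49.2% of the comparison set. KO to Het had a median of 0.03. Both ratios share the wild-type group, so a high wild-type level enters both.

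At day 5 the median log2 ratio was -0.53 for KO to wild type (0.69), with 383 genes below 0 (86.5%), and -0.30 for Het to wild type (0.81), with 391 below 0 (88.3%). The comparison set had medians of -0.02 and -0.05. KO to Het, 0.03 at day 3, was -0.23 at day 5, with 307 genes below 0 (69.3%). By gene, the change of the KO to Het ratio from day 3 to day 5 had a median of -0.24, beside 0.01 in the comparison set. A test of that change in each gene, described below, called 0 of the 443 genes and 24 of 14016 genes in all. The genes did not all shift by the same amount: the standard deviation of the log2 ratio over genes was 0.37 on chromosome 12 and 0.47 in the comparison set for KO at day 3, and 0.56 and 0.51 for KO at day 5.

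**Figure D1:**
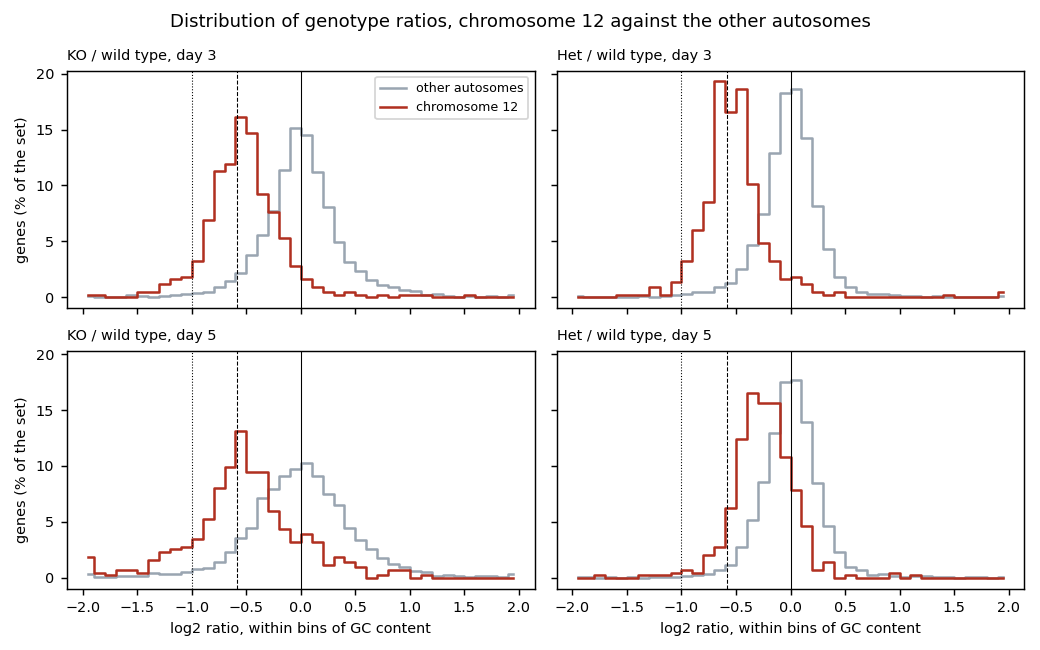
Histograms of the log2 ratio within GC bins (horizontal axis) as the percentage of genes (vertical axis) for chromosome 12 (red) and the other autosomes (grey) in 4 comparisons, values beyond 2 in size drawn in the outermost bin. The solid line marks equal levels, the dashed line a ratio of 2 copies to 3 and the dotted line 1 to 2; the chromosome 12 curve lies to the left of the grey one, with a median of -0.53 for Het to wild type at day 3 and -0.24 at day 5.

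The same shift could be read from the levels without any ratio. The median level of the 443 genes was 25.7 FPKM (wild type), 18.7 (Het) and 19.1 (KO) at day 3, and 30.3, 22.9 and 20.04 at day 5. The comparison set stayed between 18.7 and 19.7 FPKM in all 6 groups. Chromosome 12 genes were thus at 1.32 times the comparison median (wild type), 0.98 (Het) and 0.98 (KO) at day 3, and at 1.56, 1.23 and 1.02 times at day 5. Their share of the FPKM summed over all broadly expressed autosomal genes was 7.40% (wild type), 5.33% (Het) and 4.80% (KO) at day 3, then 8.28%, 6.93% and 3.75% at day 5. In KO the summed FPKM of the 443 genes went from 31475 at day 3 to 33658 at day 5 and that of all these autosomal genes from 656228 to 897364, so the lower KO share at day 5 came with a larger total. FPKM are relative, so fewer copies in the edited lines and more copies in the wild-type group cannot be told apart from these ratios.

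The authors' deposited table calls a gene at a q-value below 0.05. At day 3 it called 80 of the 443 genes lower in KO than in wild type and 2 higher, or 18.1% and 0.451%, where 5.17% of all tested genes fell and 4.34% rose. In Het at day 3 it called 89 lower (20.1%) and 2 higher, beside 4.63% and 1.68% of all tested genes. For KO to Het at day 3 it called 1 lower and 0 higher, beside 0.54% and 2.3% of all tested genes. At day 5 the authors' deposited table called 107 lower in KO (24.2%) and 4 higher, beside 5.68% and 7.58%, and 17 lower in Het (3.84%) and 1 higher, beside 1.02% and 1.14%. For KO to Het at day 5 it called 27 lower (6.09%) and 4 higher, beside 2.51% and 5.55%. All tested genes include genes that fail the FPKM rule. In the comparison set, which meets it, 3.73% were lower and 2.89% higher in KO at day 3, and 2.42% and 0.723% in Het. At day 5 these shares were 3.57% and 3.01% in KO, and 0.564% and 0.376% in Het. For KO to Het they were 0.174% and 0.767% at day 3, and 1.37% and 2.26% at day 5.

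In each of these comparisons most of the 443 genes were not called, from 332 in KO to wild type at day 5 to 442 in KO to Het at day 3. The median standard error (SE) of a gene's log2 ratio, from the deposited ratio and test score, was 0.44 for KO to wild type at day 3 and 0.46 for Het to wild type at day 5. A shift of the chromosome's size in 1 gene is therefore about as large as its own error. The calls also rest on the deposited p-values and on their adjustment over all comparisons together. Normal p-values of the same test scores, adjusted within each comparison, gave 4 lower genes for KO and 1 for Het at day 3. At day 5 they gave 26 for KO and 0 for Het. Both the p-value and the adjustment differ there from the deposited ones.

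Chromosome 12 stood apart from the other 21 autosomes in each ratio to wild type. For KO at day 3 the other autosomes had medians from -0.37 (chromosome 19) to 0.24 (chromosome 1), and for Het at day 3 from -0.32 (chromosome 19) to 0.17 (chromosome 4). At day 5 the range was -0.25 (chromosome 13) to 0.11 (chromosome 22) for KO, and -0.16 (chromosome 18) to 0.15 (chromosome 19) for Het. For KO to Het at day 5 chromosomes 19 (-0.25) and 11 (-0.23) were at or below chromosome 12 (-0.23). Genes of the long arm of chromosome 1, 381 of them, had medians of 0.62 for KO and 0.02 for Het to wild type at day 3, and 0.58 for KO to Het. These genes had 0.34, -0.06 and 0.44 at day 5.

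Ratios also followed the GC content of the transcripts, a known source of library bias, and chromosome 19 is rich in GC. Over the comparison set, the Spearman correlation of the log2 ratio with transcript GC content was -0.51 for KO and -0.67 for Het at day 3, and 0.15 and 0.48 at day 5, a description across genes. The chromosome 12 genes were average in GC, with a median of 47.1% beside 47.2% (435 of the 443 had a value). Taken against comparison genes of the same GC content, in 20 bins, their medians were -0.53 and -0.53 for KO and Het at day 3, and -0.52 and -0.24 at day 5. On that scale the other autosomes lay between -0.08 and 0.19 for KO and between -0.03 and 0.03 for Het at day 3, and between -0.21 and 0.12 and between -0.05 and 0.05 at day 5.

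**Figure D2:**
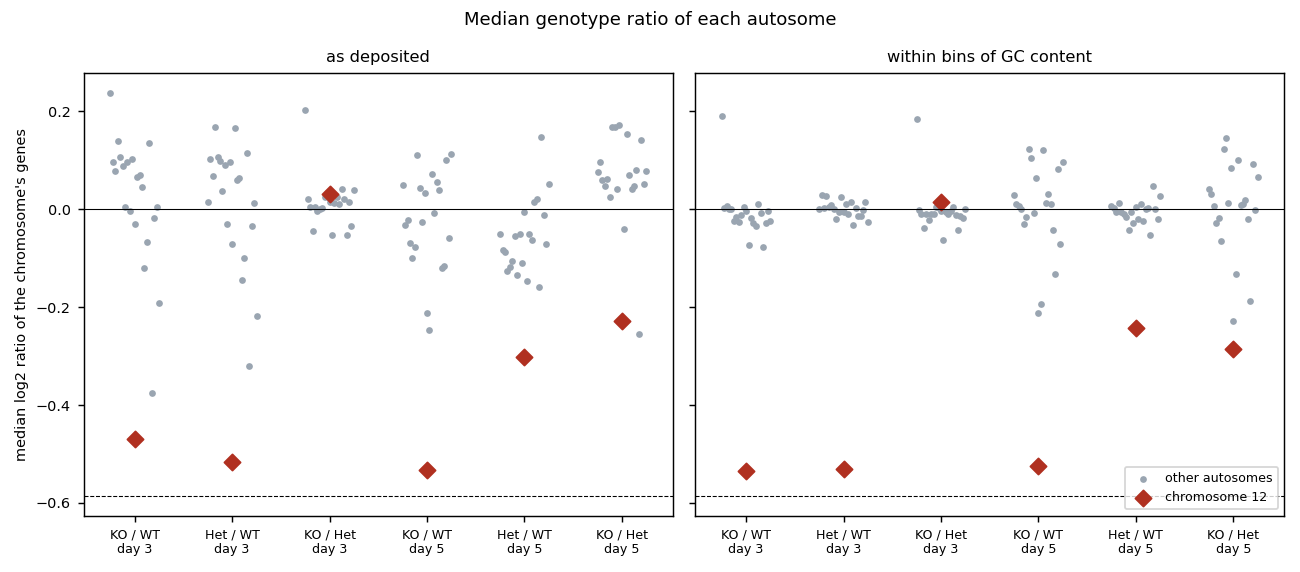
Median log2 ratio of the broadly expressed genes of each autosome (vertical axis) in 6 comparisons (WT, wild type), as deposited (left) and within GC bins (right). Red diamonds are chromosome 12, grey points the 21 other autosomes, the dashed line a ratio of 2 copies to 3; at day 3 the red diamonds for KO and Het to wild type are at -0.53 and -0.53 in the right panel, where no grey point is below -0.08.

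The shift ran along the whole chromosome. Medians of the p arm were -0.45 for KO and -0.51 for Het at day 3, and -0.55 and -0.35 at day 5, and those of the q arm were -0.47, -0.52, -0.52 and -0.29. In 14 windows of 10 Mb with at least 7 genes each, every window median was below 0 in each of the 4 ratios to wild type. Of 249 such windows on other autosomes, 69 and 83 were below 0 for KO and Het at day 3, and 140 and 195 at day 5, and 19, 40, 3 and 61 were as low as the highest chromosome 12 window. The chromosome 12 windows ran from -0.68 to -0.24 for KO and from -0.63 to -0.10 for Het at day 3, and from -0.96 to -0.46 and from -0.54 to -0.18 at day 5. Spearman correlations with position were between -0.07 and 0.09 in these 4 ratios, so no trend from one end to the other was seen.

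Within GC bins the windows were more even. For KO at day 3 they ran from -0.68 to -0.43 and for Het from -0.68 to -0.31, and none of the 249 windows on other autosomes was as low as the highest of these, the lowest being -0.34 and -0.26. At day 5 they ran from -0.86 to -0.44 for KO, where 2 other windows were as low as the highest, and from -0.38 to -0.17 for Het, where 4 were. The lowest window for KO at both days spanned 90 to 100 Mb, with 19 genes, at -0.68 and -0.86.

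The first gene, LOC100288778 (87984 to 91263 in hg19), stood at 18.2 FPKM (wild type), 12.6 (Het) and 9.61 (KO) at day 3, and at 15.3, 18.1 and 14.6 at day 5. ZNF268, a zinc finger gene and the last along the chromosome (133757995 to 133783697), stood at 9.44, 7.46 and 7.43 FPKM at day 3 and at 5.40, 5.13 and 5.35 at day 5. Both ends were thus lower in the edited lines at day 3. At day 5 ZNF268 was about level, and LOC100288778 was higher in Het than in wild type and slightly lower in KO. Neither was called in the authors' deposited table (q-values of 0.0696 and 0.54 for KO at day 3).

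**Figure D3:**
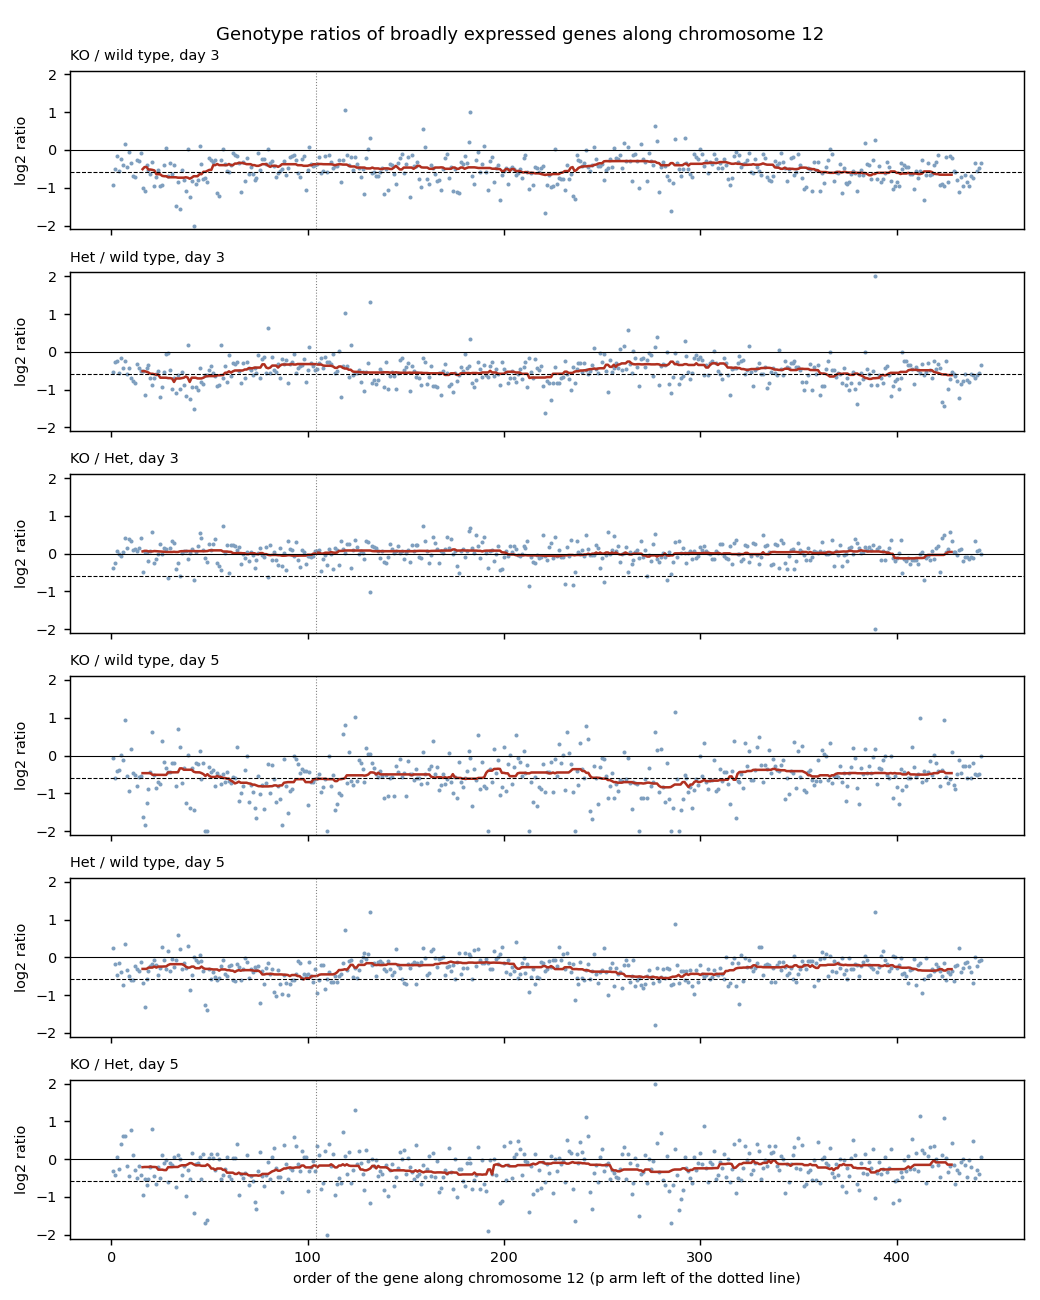
Log2 ratio (vertical axis) of each of the 443 genes in their order along chromosome 12 (horizontal axis), with the running median of 31 genes in red, in 6 comparisons; points beyond 2 in size are drawn at 2. The dashed line marks a ratio of 2 copies to 3 and the dotted vertical line the boundary of the arms. The running median is drawn only where all 31 genes are present, so not at the outermost genes. Where drawn, it stays below 0 in the 4 ratios to wild type. It is near 0 for KO to Het at day 3, where the median of all genes is 0.03.

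Each gene was assigned to the nearest of the copy ratios 1 to 2, 2 to 3, equal, 3 to 2 and 2 to 1 on the log2 scale within GC bins. For Het at day 3, 73.8% of the chromosome 12 genes were nearest to 2 to 3, beside 10.2% of the comparison set, and for KO 63.9%, beside 14.2%. At day 5 the share was 49.9% for KO, beside 19.4%. For Het at day 5 it was 40.2%, beside 10.6%, and 54.7% were nearest to equal. Nearest to 1 to 2 were 16.3% for KO and 12.4% for Het at day 3, and 22.5% and 2.76% at day 5. The comparison set had 1.97%, 1.46%, 4.38% and 0.798% there. Without GC bins, the 2 to 3 shares were 53.5% for KO and 57.6% for Het at day 3, beside 17.1% and 18.96%. At day 5 they were 44.9% and 46.95%, beside 20.8% and 17.2%, and 46.73% of the Het ratios were nearest to equal. With an SE near 0.44 the assignment places the set and not the single gene.

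Genes whose KO to wild type ratio lay near the chromosome's own median at both days were PRIM1, ADIPOR2, TUBA1C, SCAF11 and ATF7. The Het ratios were not used to choose them. ADIPOR2, an adiponectin receptor, stood at 38.7 FPKM (wild type), 25.6 (Het) and 28.3 (KO) at day 3, and at 40.9, 32.1 and 28.3 at day 5. PRIM1 stood at 48.7, 42.5 and 35.6 FPKM, then 48.3, 29.8 and 32.6, with log2 ratios of -0.20 and -0.70 for Het at the 2 days, away from the Het medians of -0.52 and -0.30. ATF7, a bZIP transcription factor, stood at 14.1, 9.54 and 9.95 FPKM, then 17.3, 11.5 and 11.6. That KO was below wild type in these 3 at each day follows from how they were chosen. Het was below wild type in them at each day as well. The authors' deposited table called none of the 3.

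Among the most abundant transcripts wild type was highest at day 3, while the order of Het and KO varied. GAPDH, the glycolytic dehydrogenase often used as a loading reference, stood at 6848 FPKM (wild type), 3002 (Het) and 3566 (KO) at day 3. The day 5 levels were 6952, 5763 and 4101 FPKM. It was called lower in the authors' deposited table for Het at day 3 alone (log2 ratio -1.19, SE 0.54, q-value 0.0196), with -0.94 (SE 0.55, q-value 0.0682) for KO.

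TPI1, triose phosphate isomerase, stood at 1418, 636 and 665 FPKM in wild type, Het and KO at day 3, and at 1654, 1356 and 692 at day 5. In the authors' deposited table it fell in Het (-1.16, SE 0.42) and KO (-1.09, SE 0.42) at day 3 and in KO at day 5 (-1.26, SE 0.43), each with a q-value of 0.00126. NACA, a subunit of the nascent chain complex, stood at 1290, 794 and 682 FPKM, then 1889, 1520 and 800. At day 5 both genes were nearer to wild type in Het than in KO.

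MYL6, a myosin light chain, was the exception among the 10 most abundant genes, with Het above wild type at day 5. It stood at 1714, 1416 and 1078 FPKM at day 3 and at 1434, 1732 and 804 at day 5. The authors' deposited table called it lower at day 5 in KO against wild type (-0.83, SE 0.42, q-value 0.0245) and against Het (-1.11, SE 0.41, q-value 0.00476). The others, HNRNPA1, TUBA1B, LDHB, TUBA1A, RAN and TUBA1C, had log2 ratios of -0.38 to -0.70 for KO and -0.46 to -0.76 for Het at day 3. None of these 6 was called at day 3. GAPDH, HNRNPA1 and the tubulins have near-identical copies elsewhere in the genome, and how reads were shared among them is not given in the sources used here.

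**Figure D4:**
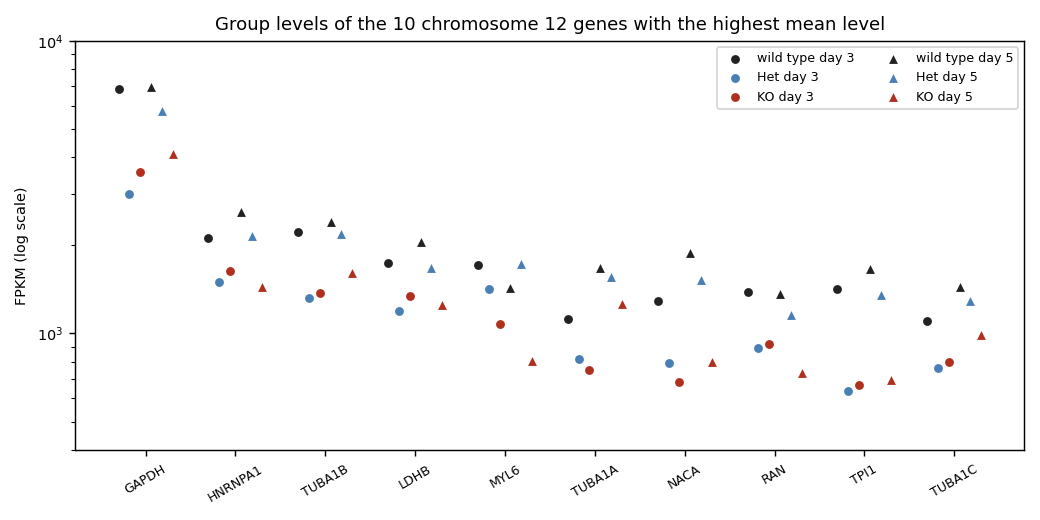
Level in FPKM (vertical log axis) of the 10 chromosome 12 genes with the highest mean, 1 point for each group, circles for day 3 and triangles for day 5. Each black point (wild type) lies above the blue (Het) and red (KO) points of its day, except that MYL6 at day 5 is at 1732 in Het and 1434 in wild type.

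Grouped by function, the chromosome 12 genes had medians below 0 in all 11 lists and all 4 ratios to wild type. The list names are loose. TXNRD1 and SLC11A2 in the mitochondrial list, TWF1 in translation, LIMA1 in RNA binding and CKAP4 in cell cycle do not match the names well. MRPL51, PA2G4, CKAP4, TWF1 and LIMA1 are also counted again in another list. The counts of each list stand beside 18.1% and 20.1% of all 443 genes called lower in KO and Het at day 3, and 24.2% and 3.84% at day 5, and beside 5.17%, 4.63%, 5.68% and 1.02% of all tested genes. In the glycolysis list, all 5 members were below 0 in both lines at day 3, with medians of -0.94 for KO and -1.16 for Het beside -0.47 and -0.52 over all 443 genes. The authors' deposited table called 2 and 3 of them lower. ENO2, a neuronal enolase, stood at 104, 43.5 and 43.8 FPKM in wild type, Het and KO at day 3 and at 227, 124.7 and 86.0 at day 5. It was lower in both edited lines at both days in that table, by -1.24, -1.25, -1.40 and -0.86 on the log2 scale for KO and Het at day 3 and KO and Het at day 5 (SE 0.41 to 0.42).

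The mitochondrial energy and matrix list held 18 genes. Of these the authors' deposited table called 7 lower in KO and 10 in Het at day 3, then 8 and 0 at day 5, and 0 higher. Their medians were -0.68, -0.71, -0.45 and -0.21. SHMT2, the mitochondrial serine hydroxymethyltransferase of one-carbon metabolism, had the second largest fall of a called gene in KO and the largest in Het at day 3. It stood at 174 FPKM (wild type), 57.0 (Het) and 54.4 (KO), and at 123, 94.8 and 62.9 at day 5. COX6A1, a cytochrome c oxidase subunit, stood at 644, 248 and 302 FPKM, then 619, 541 and 341. ATP5G2, an ATP synthase subunit, stood at 745, 433 and 346 FPKM, then 1117, 1022 and 512. At day 5 the Het levels of SHMT2, COX6A1 and ATP5G2 lay between those of wild type and KO. Each was nearer to wild type, least clearly for SHMT2.

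Of 19 cell cycle genes, the authors' deposited table called 7 lower in KO and 5 in Het at day 3, and 5 and 1 at day 5. CCND2, cyclin D2, stood at 75.3, 34.2 and 35.4 FPKM in wild type, Het and KO at day 3 and at 135, 54.2 and 37.9 at day 5, and was called lower in all 4 ratios to wild type (-1.14, -1.09, -1.32 and -1.83 in that order, SE 0.42 to 0.49). CDK4, its kinase partner, stood at 182, 115 and 107 FPKM, then 138, 146 and 140, and so was level at day 5. CDKN1B, the inhibitor p27, stood at 30.04, 16.9 and 13.9 FPKM, then 51.1, 33.6 and 25.6. At day 3 the cyclin, its kinase and the inhibitor all stood below wild type in both edited lines, and at day 5 the cyclin and the inhibitor did.

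DNA replication and repair held 15 genes, of which 2 were called lower in KO and 1 in Het at day 3, and 4 and 0 at day 5, in the authors' deposited table. Of all 443 genes, 18.1% (KO) and 20.1% (Het) fell at day 3, and 15 genes are too few to set the list apart from them. Chromatin and transcription held 26, with 5 and 4 called lower at day 3 and 8 and 0 at day 5. HMGA2, an architectural chromatin protein, stood at 199, 139 and 135 FPKM in wild type, Het and KO at day 3 and at 262, 174 and 95.0 at day 5, with a call in KO at day 5 (-1.46, SE 0.41).

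Translation and nascent chain factors held 17 genes, with 5 and 6 called lower at day 3 in KO and Het and 4 and 1 at day 5 in the authors' deposited table. RNA binding, splicing and decay held 20, with 1 and 2 at day 3 and 7 and 0 at day 5. Its day 5 genes in KO included SNRPF, a core spliceosome protein, at 457 FPKM (wild type), 353 (Het) and 169 (KO), and RAN, the nuclear transport GTPase, at 1361, 1159 and 732. Folding, ubiquitin and proteasome genes (18) had 2 and 3 called lower at day 3 and 5 and 0 at day 5, and vesicle traffic and membrane genes (26) 2 and 2, then 4 and 1.

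Of 16 tubulin, keratin and actomyosin genes, 2 and 1 were called lower at day 3 and 3 and 2 at day 5 in the authors' deposited table. KRT8 and KRT18, the paired keratins of simple epithelia, did not follow the chromosome in KO at day 3. KRT8 stood at 54.2, 45.3 and 56.9 FPKM in wild type, Het and KO, and KRT18 at 34.2, 30.4 and 50.3, without a call (KRT18 0.56, SE 0.68). The locus given for KRT8 and KRT18 is the same, 53290971 to 53346685 in hg19, so fragments in their overlap could be split between them, and 43 of the 443 genes share a locus in this way.

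Of 20 signalling genes, the authors' deposited table called 1 and 4 lower at day 3 in KO and Het and 5 and 3 at day 5. MDM2, the p53 ubiquitin ligase, stood at 32.0, 15.4 and 23.03 FPKM in wild type, Het and KO at day 3, then 36.5, 18.2 and 16.9 at day 5. DUSP6, a phosphatase that restrains ERK, stood at 7.07, 7.70 and 11.0 FPKM at day 3 and at 37.7, 10.9 and 58.3 at day 5. At day 5 it fell in Het against wild type (-1.79, SE 0.48) and was higher in KO than in Het (2.42, SE 0.51), each with a q-value of 0.00126 in the authors' deposited table.

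**Figure D5:**
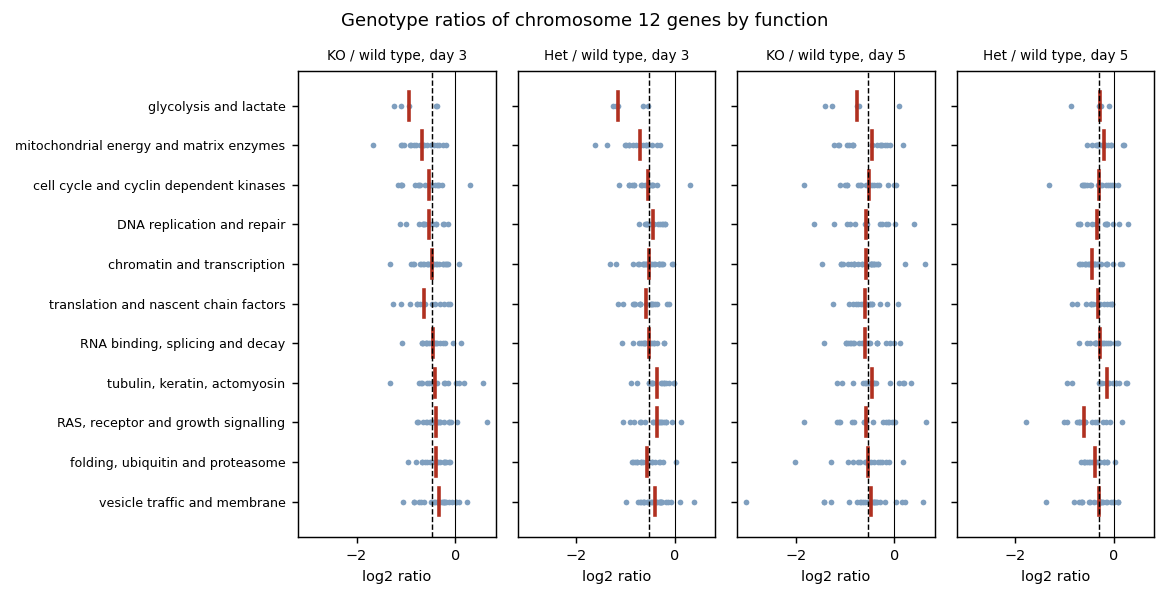
Log2 ratio to wild type (horizontal axis) of the chromosome 12 genes in 11 functional lists (rows) in 4 comparisons, 1 blue point for each gene and a red bar for the list median; the dashed line is the median of all 443 genes. All 11 list medians are below 0 in each panel, the lowest being glycolysis and lactate at -1.16 for Het at day 3.

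Beside SHMT2, the largest called falls in KO at day 3 were C12orf57, NR2C1, PTMS and LEPREL2. C12orf57, a small gene needed for brain development, stood at 279 FPKM (wild type), 97.5 (Het) and 60.0 (KO) at day 3, and at 200, 201 and 74.3 at day 5. Its log2 ratio in KO at day 3 was -2.22 (SE 0.50, q-value 0.00126 in the authors' deposited table), the largest fall of a called gene. NR2C1, an orphan nuclear receptor, stood at 34.5, 16.2 and 11.2 FPKM, then 85.9, 51.3 and 15.8. PTMS, parathymosin, stood at 734, 347 and 264 FPKM, then 792, 751 and 452. LEPREL2, a prolyl hydroxylase, stood at 27.1, 13.7 and 9.11 FPKM, then 13.3, 15.6 and 15.5, so that it was no lower in the edited lines at day 5.

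At day 5 the largest falls in KO went far past any copy ratio. SLC2A3, the glucose transporter GLUT3, stood at 477, 310 and 265 FPKM in wild type, Het and KO at day 3 and at 1342, 514 and 167 at day 5. Its log2 ratios at day 5 were -3.004 (SE 0.50) for KO and -1.38 (SE 0.58) for Het. Its neighbour and close paralogue SLC2A14, at 249, 104 and 32.1 FPKM at day 5, had -2.96 and -1.26, and reads of these copies may be hard to assign. LRIG3, a membrane protein with leucine-rich repeats, stood at 51.6, 23.8 and 7.62 FPKM at day 5, and NELL2, a secreted neural glycoprotein, at 76.3, 50.9 and 11.7. PMEL, the pigment cell matrix protein, stood at 186, 168 and 44.8 FPKM at day 5. In the authors' deposited table, all 5 fell in KO against both wild type and Het.

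The genes that rose were few. COL2A1, a fibrillar collagen (48366748 to 48398285 in hg19), stood at 24.6, 50.4 and 51.3 FPKM in wild type, Het and KO at day 3 and at 33.4, 55.5 and 58.6 at day 5. In the authors' deposited table it rose in KO (1.06, SE 0.40) and Het (1.04, SE 0.41) at day 3 and in KO at day 5 (0.81, SE 0.44, q-value 0.0393). WNT1 (49372236 to 49376396), whose promoter is printed above, stood at 14.8, 36.8 and 18.3 FPKM, then 25.3, 58.5 and 26.2. It was high in Het at both days and about level with wild type in KO. The authors' deposited table called it higher in Het than in wild type (1.31, SE 0.48, and 1.21, SE 0.58) and lower in KO than in Het (-1.01, SE 0.47, and -1.16, SE 0.58).

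ITGA5, whose promoter is also printed above, stood at 14.8, 18.6 and 29.9 FPKM at day 3 and at 25.9, 26.3 and 24.6 at day 5, with a call for KO at day 3 (1.02, SE 0.43, q-value 0.00476). CDK2AP1, which binds CDK2, changed side between the days: 205, 139 and 139 FPKM at day 3, then 94.7, 84.6 and 188. SCARB1, a lipoprotein receptor, stood at 22.5, 8.26 and 11.6 FPKM, then 15.4, 13.8 and 29.7. In the authors' deposited table CDK2AP1 rose in KO at day 5 (0.99, SE 0.44), and SCARB1 fell in KO at day 3 (-0.96, SE 0.47) and rose at day 5 (0.95, SE 0.45). ERC1, an active zone scaffold, was at 5.97, 7.58 and 11.5 FPKM at day 5 and also rose in KO (0.95, SE 0.44).

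From day 3 to day 5 the chromosome 12 genes were higher in Het and changed little as a set in the other groups. The median log2 ratio of day 5 to day 3 was 0.31 in Het, with 343 of 443 genes above 0, beside -0.01 in the comparison set. It was 0.13 in wild type (0.03 within GC bins) and 0.06 in KO, beside 0.03 and 0.00. In Het chromosome 12 was the highest autosome, the others lying between -0.11 and 0.10. The authors' deposited table called 40 of the genes higher (9.03%) and 2 lower (0.451%) in Het, beside 4.74% and 2.83% of all tested genes. It called 60 (13.5%) and 32 (7.22%) in wild type, beside 11.2% and 10.4%. In KO it called 15 (3.39%) and 10 (2.26%), beside 7.29% and 4.53%. The comparison set had 2.76% higher and 2.52% lower in Het, 10.2% and 9.43% in wild type, and 3.33% and 3.28% in KO.

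In Het the mitochondrial list had a median of 0.75 from day 3 to day 5, with 5 of 18 genes called higher in the authors' deposited table, beside 0.10 and 2 in wild type. The glycolysis list had 0.94, with 3 of 5 called higher, beside 0.24 and 1. All chromosome 12 genes with a mean of at least 100 FPKM had 0.67 in Het and 0.23 in wild type. Both lists hold such abundant genes, and the part of abundance in the list medians was not tested. The change of each gene's ratio between the days was also tested, as a difference of log2 ratios over its SE. The median change of the Het to wild type ratio was 0.21, with 295 genes above 0 (66.6%), beside -0.06 and 45.3% in the comparison set, and that of KO to wild type was -0.05 beside -0.05. By gene, with Benjamini-Hochberg adjustment over all genes, that test called 51 of 14074 genes for KO and 17 of 13966 for Het. Of the 443 genes it called only the small RNA gene MIR3685 in each line. At an unadjusted p under 0.05 it had 5 of the 443 genes for Het and 13 for KO, both less than a share of 0.05.

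The ratios of the same line at the 2 days share no group. For KO to wild type, 369 genes (83.3%) were below 0 at both days, beside 27.4% of the comparison set. Of the 443, 40 fell at both days in the authors' deposited table, beside 45 of the 6914 comparison genes. For Het to wild type, 374 genes (84.4%) were below 0 at both days, beside 21.8%, and 5 fell at both days in that table, beside 5 of the 6914. Across the 443 genes the log2 ratios of the days had a Pearson correlation of 0.32 and a Spearman correlation of 0.23 for KO, beside 0.30 and 0.26 in the comparison set. For Het the Pearson correlation was 0.14 and the Spearman correlation -0.13, beside -0.16 and -0.28. These describe genes of the same libraries, which are not independent replicates.

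In KO the most abundant genes differed most from wild type at day 5. The 60 genes with a mean of at least 100 FPKM had a median log2 ratio of -0.82 for KO to wild type, beside -0.22 for comparison genes of that level, while the 55 genes with 5 to 10 FPKM had -0.33 beside 0.07. For Het to wild type at day 5 these bins were at -0.27 and -0.22, and the lowest, 20 to 50 FPKM, was at -0.35. At day 3 the bins of at least 100 and of 5 to 10 FPKM were at -0.60 and -0.40 for KO. Comparison genes of those levels were at -0.03 and 0.03 for KO at day 3. At day 5 they were at -0.22 and 0.07, so the comparison set also had a level trend at that day. In Het from day 3 to day 5 the abundant genes had a median of 0.67, beside 0.15.

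Groups also differed in cell state, as the marker genes showed. The summed level of 9 neural crest markers was 13.5 FPKM (wild type), 62.2 (Het) and 82.8 (KO) at day 3, and 46.8, 98.7 and 245 at day 5. SOX10, a defining crest factor, was near 0 in wild type even at day 5 (0.388 FPKM) and at 34.6 in KO, so wild-type cells sampled as neural crest cells lacked that marker. Not every marker went that way. SNAI2 stood at 6.35, 9.85 and 5.07 FPKM in wild type, Het and KO at day 3, then 23.2, 19.5 and 28.5. At day 3 all crest markers but SNAI2 and ETS1 were highest in KO, and at day 5 each was. The summed level of 4 neural progenitor markers was 183, 102 and 78.9 FPKM, then 173, 124 and 60.5. FOXB1 itself stood at 18.3, 7.73 and 15.5 FPKM, then 5.51, 4.47 and 1.86, and its transcript level does not check an edit at the start codon. The summed level of 5 pluripotency markers was 112, 68.8 and 151 FPKM, then 65.1, 53.7 and 46.1, and that of 5 mesendoderm markers 0.623, 0.525 and 15.8, then 0.205, 0.292 and 2.17. The crest sum was highest and the neural progenitor sum lowest in KO at both days, while at day 3 the pluripotency and mesendoderm sums were highest in KO and lowest in Het. At day 3 the crest and neural progenitor sums of KO and Het were nearer to each other than to wild type. The pluripotency and mesendoderm sums and FOXB1 of these lines lay further apart. The part of these marker differences in the ratios of single genes was not tested.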

How the data were processed

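Poly-adenylated RNA of 16 libraries was sequenced. Per the submitters' processing notes, reads were aligned to hg19 with TopHat2 2.1.1 and quantified with Cuffdiff 2.2.1. For settings and annotation the entry is "not given in the sources used here", and depth is unknown. Deposited by the authors were FPKM per gene and group (in both level columns) with a log2 ratio, a test score, a p-value and a q-value for each of 15 comparisons, of which 9 were used. Over 222234 tests, Benjamini-Hochberg adjustment of the deposited p-value gives back the q-value. The group named HOMO was read as KO. SE were the deposited log2 ratio over the deposited score. No pseudocount was needed.

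GC content came from the longest GENCODE 29 transcript of each symbol, and a gene's ratio within GC bins is its log2 ratio less the median of comparison genes in its bin of 20. Starts are counted from 1, and the arms were divided at 36 Mb. The window minimum of 7 genes was chosen after the data were seen. The genes, the lists and the naming rule were chosen with earlier results of these data known. The genes named were the 10 most abundant, the 5 largest called rises and falls of each genotype comparison, the ends of the chromosome, the genes beside the minimum, the 5 closest to the median of KO to wild type at both days and list members. The change of a ratio between days was tested with a 2-sided normal p-value. The scripts, checked on simulated data, ran in Python 3.11.15 with pandas 2.3.3 and scipy 1.17.1. Alternatives were other FPKM minimums, centring, GC bins, each arm, weighting, other call rules and normal p-values.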

Additional observations from a re-analysis of the deposited data

Results flagged for a closer look

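MIR3685, a microRNA gene of 62 bases (95703699 to 95703760 in hg19), was the 1 member whose ratio to wild type changed between the days by the test of that difference. It stood at 77.4 FPKM (wild type), 75.7 (Het) and 93.9 (KO) at day 3, and at 72.1, 133 and 160 at day 5. Its log2 ratio changed by 0.87 for KO and 0.92 for Het. Its implied SE was near 0.04, where no other member was below 0.36, and its q-values in the authors' deposited table were 0.787 and 0.864 for KO and Het at day 5. The deposited score and p-value of this gene thus give opposite readings, and the cause was not tested.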

How the results depend on the processing

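No paired analysis was possible because the deposited table has no value per library, so the replicate block and leaving out replicates could not be run either. Of 108 alternative values of the 9 medians, all but 7 stayed within the spread set for them. A mean weighted by the inverse squared SE gave 6 of these: -0.31 for KO at day 3, -0.044 for KO at day 5, -0.027 for KO to Het at day 5, 0.43 for Het and 0.27 for KO between the days, and for Het at day 5 the opposite sign, 0.022. Without MIR3685, left out after seeing the data, the weighted means were -0.50, -0.57, -0.23, 0.31, 0.06 and -0.32. With a minimum of 20 FPKM the median of KO to Het at day 5 was -0.35.

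The shares of called members that fell depended more on the rule. At a q-value below 0.01 they were 8.35% (KO) and 7.90% (Het) at day 3, 13.8% and 1.58% at day 5, and 0 and 3.16% for KO to Het at the 2 days. Adjustment within each comparison gave 13.3% for Het at day 3, 1.58% for Het at day 5 and 0 for KO to Het at day 3. Normal p-values, added after seeing the data, gave 0.903%, 0.226%, 5.87% and 0% for KO and Het at day 3 and day 5, and 0 and 1.58% for KO to Het. Ratios centred on the other autosomes, also with normal p-values, gave 1.13%, 0.226%, 5.64% and 0%, and 0 and 1.58%. Normal p-values were adjusted within each comparison in both cases. For KO to Het, a minimum of 1 FPKM gave 0.472% at day 3, and one of 20 FPKM gave 0 at day 3 and 10.9% at day 5. Depth is unknown, and a median SE of 0.44 limits what can be read from a single member.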

Other observations

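Chromosome 12 genes that the FPKM rule left out were lower as well. The 192 genes with at least 1 FPKM in all groups that were not members had a median log2 ratio of -0.51 for KO and -0.54 for Het to wild type at day 3, and of -0.39 and -0.19 at day 5. Comparison genes of those levels on other autosomes had -0.04, -0.05, 0.14 and 0.00. The spread over genes was wider than among the members, with a standard deviation of 0.68 beside 0.37 for KO at day 3.

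The 5 ribosomal protein genes of the chromosome had medians of -0.83 for KO and -0.72 for Het at day 3, -1.05 for KO at day 5 and -0.14 for Het at day 5. In Het they had a median of 1.04 from day 3 to day 5, all 5 above 0. Ribosomal protein genes of other chromosomes were not set beside them, so whether these values are particular to chromosome 12 was not tested.

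Split into 3 classes by GC content, genes of the lowest and the highest class changed order between the days. In the lowest class, 145 members had medians of -0.35 for KO at day 3 and -0.70 at day 5, and in the highest class, 145 had -0.71 and -0.35. The comparison set moved likewise, from 0.18 to -0.12 in the lowest class and from -0.27 to 0.05 in the highest.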
